A study of Mus musculus with 67 samples.

Results

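Mouse small intestinal organoids grown in the full 8C medium were compared with organoids grown in ENR medium that also held both epigenetic drugs (ENR +VE). The libraries were taken by the condition in their labels: 8C replicates 1 to 3 and ENR +VE replicates 1 to 3, which are 6 of the 67 bulk RNA-seq libraries of the series and 6 of its 49 organoid libraries. The organoids came from crypts of the proximal small intestine of mice aged 6 to 12 weeks. The strain, the time in medium and the passage at collection are not given for these libraries. The study describes its organoid expression data as coming from several mice, but the labels do not tie libraries to mice, and p-values measure the spread between these libraries.

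Both media held VPA, which inhibits histone deacetylases, EPZ6438, which blocks the Polycomb methyltransferase EZH2, and EGF at 50 ng/mL. In 8C the drugs were present at 500 µM VPA and 2 µM EPZ6438, with 0.2 µM LDN193189, an inhibitor of BMP type I receptors, 0.1 µM GSK-3 Inhibitor XV (GSK3iXV), which stabilises β-catenin by blocking its kinase, 1 µM Pexmetinib, a p38 kinase inhibitor, bFGF at 20 ng/mL and medium conditioned with R-Spondin 1 at 10%. ENR held 100 ng/mL Noggin, a secreted BMP antagonist, and 500 ng/mL R-Spondin 1 protein, and the doses of VPA and EPZ6438 added to it are not given in the sources used here. The question was what the base medium changes when the drugs are in both arms. GSK3iXV, Pexmetinib and bFGF were in 8C alone, LDN193189 stood in place of Noggin, and the R-Spondin 1 source differed, so the effects of single components cannot be told apart in this comparison. For 2 further views, 8C without VPA and EPZ6438 (8C -VE) and drug-free ENR gave the same base media comparison without drugs, and 8C lacking 1 component (8C -GSK3i, 8C -Pex, 8C -bFGF) gave levels in related media.

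The small intestinal epithelium renews from Lgr5+ stem cells at the crypt base, which are kept by Wnt signalling and by low BMP signalling. Their daughters become absorptive enterocytes, which carry digestive enzymes and lipid transport proteins, or secretory Paneth, goblet, enteroendocrine and tuft cells. After injury, cells that express fetal-like genes such as Clu and Ly6a (encoding SCA1) appear, and YAP, the effector of the Hippo pathway, is known to drive much of that programme. Reg lectins are secreted proteins, some of them antimicrobial, and many of their genes lie next to each other in the genome.

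All 12 intestinal epithelial markers that were looked up, among them Epcam, Cdh1, Vil1 and Cdx1, were expressed in each of the 6 libraries, with summed levels of 10517 to 12012 TPM in 8C and 9663 to 9872 TPM in ENR +VE. Markers of other cells were near 0: the 9 fibroblast markers summed to at most 1.87 TPM in 8C and 2.13 TPM in ENR +VE, with Col3a1, Lum and Thy1 listed at 0 in every library, and the 5 endothelial markers to at most 0.413 and 0.971 TPM. Sums of the 9 immune markers were 2.17 to 3.36 TPM in 8C and 3.09 to 3.77 TPM in ENR +VE, those of the 5 smooth muscle markers at most 0.500 and 1.95 TPM, and those of the 6 nerve and glia markers 6.29 to 8.51 TPM and 4.59 to 4.87 TPM, most of it Tubb3.

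8C replicate 2 stood apart from the other 8C libraries. Its log2(TPM + 1) values correlated with those of replicates 1 and 3 at r = 0.975 and 0.961 across genes, where replicates 1 and 3 reached 0.993 with each other. Long transcripts were low in it: its deviation from the other 8C libraries correlated with transcript length at r = -0.558, and ENR +VE replicate 3 showed the same within its own group (r = -0.590). Since each deviation was taken from the other libraries of the group, these were positive in the remaining libraries, at 0.314 and 0.567 for 8C replicates 1 and 3 and 0.355 and 0.467 for ENR +VE replicates 1 and 2. Counts are therefore also given without 8C replicate 2. With the length trend removed from each library, 209 of the 211 rises and 489 of the 501 falls described below kept their call. In both groups replicate 1 had Xist together with Y-linked genes, replicate 2 had Xist with Y-linked genes at or near 0, and replicate 3 had Y-linked genes with Xist near 0, so this feature was balanced between the media, and replicates 2 and 3 of each came from mice of different sex.

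Genes were tested where their average over the 6 libraries reached 1 TPM, which left 12711. Of these, 712 (5.60%) were called, which required an adjusted p under 0.05 in limma and a 2-fold or larger change on the log2(TPM + 1) scale. Of the tested genes, 211 (1.66%) were called higher in 8C and 501 (3.94%) lower. The 6 values of each of the 712 called genes did not overlap between groups, which held for 27.7% of all tested genes. Without 8C replicate 2 the counts were 346 higher and 512 lower, and with 8C replicates 4 to 6 in place of 1 to 3 they were 563 higher and 525 lower. In the latter fit 119 of the 211 rises and 306 of the 501 falls kept their call, and 60 of the 712 genes had the opposite sign. The share of calls that were higher was thus 29.6% as analysed, 40.3% without replicate 2 and 51.7% with replicates 4 to 6, so the excess of falls over rises held for the first libraries and not for the later ones. The median log2 difference over all tested genes was 0.07. With the replicate number added to the fit as a block, 126 of the 211 rises and 376 of the 501 falls kept their call. Named genes that lost it are listed in the section on dependence on the processing.

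**Figure D1:**
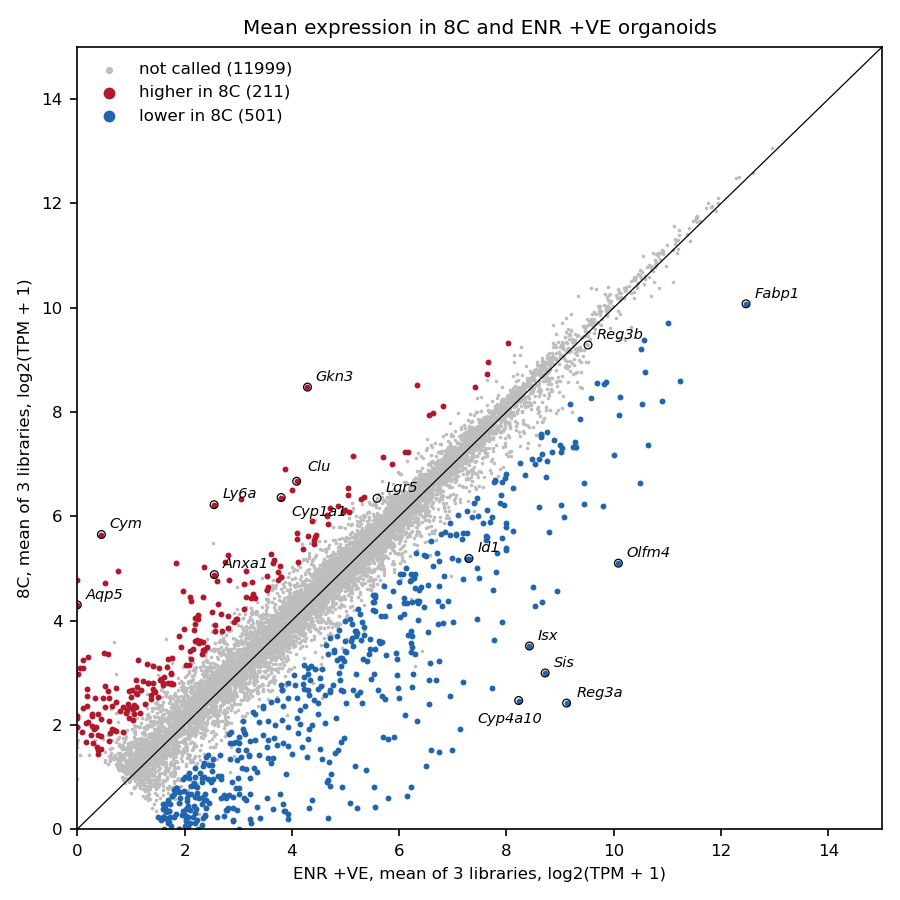
Mean log2(TPM + 1) of 3 libraries in ENR +VE (x axis) and in 8C (y axis) for each of the 12711 tested genes, with the 211 genes called higher in 8C in red, the 501 called lower in blue and the line of equal expression in black. Sis, Reg3a, Cyp4a10, Isx and Olfm4 lie far below the line, Gkn3, Cym and Ly6a far above it, and Reg3b and Lgr5 close to it.

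Enterocyte genes fell in 8C. Of the 26 tested members of the enterocyte list, 21 (80.8%, against 3.94% of all tested genes) fell in 8C and none rose. The median log2 difference of the list was -2.63 against 0.07 over all genes. Sis, the sucrase-isomaltase that digests sucrose and starch fragments, stood at 5.38, 5.95 and 10.4 TPM in 8C replicates 1 to 3 and 406, 543 and 339 TPM in ENR +VE replicates 1 to 3 (log2 fold change -5.73 ± 0.27, adjusted p = 0.00011). Every 8C library was far below every ENR +VE library. Lct, the lactase, was at 0.362, 0.268 and 0.32 TPM in 8C against 18.3, 25 and 14.8 TPM in ENR +VE (log2 fold change -3.92 ± 0.21, adjusted p = 0.00017). Treh, the trehalase, fell by 4.13 on the log2 scale (adjusted p = 0.00019). Among brush border peptidases, Enpep, an aminopeptidase that cleaves acidic residues, had 1.97, 1.41 and 2.03 TPM in 8C against 106, 132 and 84.1 TPM in ENR +VE (log2 fold change -5.26 ± 0.21, adjusted p = 9.5e-05). In contrast, Anpep, aminopeptidase N, had 287, 245 and 315 TPM in 8C against 245, 313 and 194 TPM in ENR +VE and overlapped (log2 fold change 0.19 ± 0.19, adjusted p = 0.708).

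Genes of lipid and sugar handling in the same list fell as well. Fabp1, the liver-type fatty acid binding protein and one of the most abundant transcripts, was at 1059, 845 and 1395 TPM in 8C replicates 1 to 3 and 5479, 5386 and 6128 TPM in ENR +VE replicates 1 to 3 (log2 fold change -2.39 ± 0.18, adjusted p = 0.00052). Fabp2, the intestinal form, was at 265, 301 and 327 TPM in 8C against 1787, 1910.0 and 2032 TPM in ENR +VE (log2 fold change -2.68 ± 0.11, adjusted p = 9.5e-05). The apolipoprotein genes Apoa1, Apoa4 and Apoc3, whose products coat lipoprotein particles, had mean levels 11.3-, 8.97- and 16.1-fold higher in ENR +VE than in 8C (adjusted p = 0.00186, 0.0021 and 0.00049). Apob, the structural protein of chylomicrons, was not called, with 79.8, 27.8 and 119.5 TPM in 8C against 92.5, 115 and 54.5 TPM in ENR +VE and overlapping groups. Mttp, which loads lipid onto it, fell by 1.77 on the log2 scale (adjusted p = 0.00714). Each of the 3 sugar carriers of the list was lower in 8C. Slc5a1, the sodium glucose transporter, was 135 ± 24.8 TPM in 8C and 431 ± 52.8 TPM in ENR +VE (mean ± SD, n = 3, adjusted p = 0.00127 by limma). Slc2a2, the basolateral glucose exit route, was 1.84 ± 0.987 TPM in 8C and 27.1 ± 2.66 TPM in ENR +VE (adjusted p = 0.00054). Slc2a5, the fructose carrier, was 6.91 ± 1.19 TPM in 8C and 45 ± 3.33 TPM in ENR +VE (adjusted p = 0.00025). Alpi, the intestinal alkaline phosphatase, had the highest adjusted p of these calls, with 154, 82.1 and 314 TPM in 8C against 653, 593 and 573 TPM in ENR +VE (log2 fold change -1.92 ± 0.44, adjusted p = 0.0429). It was no longer called when 8C replicate 1 or any of the ENR +VE libraries was left out (adjusted p up to 0.154). Without 8C replicate 2, the count of falls was again 21. In bulk RNA, fewer cells of a type and less RNA per cell cannot be told apart.

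Genes that handle retinoids were looked at as a list. Isx, the homeobox repressor of vitamin A uptake, was at 7.38, 10.3 and 14.7 TPM in 8C against 341, 352 and 339 TPM in ENR +VE (log2 fold change -4.92 ± 0.22, adjusted p = 0.0001). Adh4, an alcohol dehydrogenase that oxidises retinol and is among the 12 largest falls, had 1.6, 1.18 and 3.14 TPM in 8C against 129, 118 and 131 TPM in ENR +VE (log2 fold change -5.47 ± 0.25, adjusted p = 0.0001). Aldh1a1, which makes retinoic acid, had 16.2, 18 and 21.1 TPM in 8C against 351, 413 and 353 TPM in ENR +VE (log2 fold change -4.27 ± 0.13, adjusted p = 7.2e-05). Of the 15 tested members of the retinoid list, 7 fell (Rbp2, Rdh7, Aldh1a1, Cyp26b1, Rarb, Dhrs3 and Isx) and 2 rose. These shares, 46.7% and 13.3%, compare with 3.94% lower and 1.66% higher of all tested genes. The call of Rarb was lost without ENR +VE replicate 1 or 2 (adjusted p up to 0.0597). Rbp4, the secreted retinol carrier, was among those that rose, although it was not called with the replicate number as a block. It was at 28.4 ± 7.16 TPM in 8C and 10.6 ± 0.683 TPM in ENR +VE (adjusted p = 0.00858). Rbp2, the enterocyte form, went the other way, from 1028 TPM in ENR +VE to 149 TPM in 8C (adjusted p = 0.00068).

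Further genes among the 12 largest falls were of several kinds. Cd36, a fatty acid receptor, was at 0.582, 0 and 1.39 TPM in 8C against 63.3, 73.1 and 72.4 TPM in ENR +VE (log2 fold change -5.50 ± 0.32, adjusted p = 0.0002). Dpep1, a dipeptidase, was at 0.747, 1.18 and 2.29 TPM in 8C against 79.8, 92.3 and 97.8 TPM in ENR +VE (adjusted p = 0.00012). Nat8, an acetyltransferase, was at 0.826, 1.09 and 0.405 TPM in 8C against 68.2, 62.3 and 92.1 TPM in ENR +VE (adjusted p = 9.7e-05). No value of these 3 genes in 8C came near the lowest in ENR +VE. Ugt1a9, a glucuronosyltransferase whose exons are partly shared with other Ugt1a genes, was at 0.106, 0 and 1.14 TPM in 8C against 45.1, 49.5 and 42.7 TPM in ENR +VE (adjusted p = 0.00022). Ces1f, a carboxylesterase, was at 1.41, 1.79 and 2.42 TPM in 8C against 89.1, 108 and 89.3 TPM in ENR +VE (adjusted p = 7.5e-05). Also among the 12 were Spink1, a trypsin inhibitor, at 215 TPM in ENR +VE and 5.81 TPM in 8C, and Mt4, a metallothionein, at 54.7 and 0.601 TPM (adjusted p = 0.00018 and 0.00025). Of the glutathione and NRF2 list, 8 of the 23 tested members fell (Gsta1, Gsta2, Gsta3, Gstm1, Gstm2, Gstm3, Nqo1 and Me1), with log2 differences from -1.17 for Nqo1 to -3.51 for Gsta2, and none rose. That share of falls, 34.8%, compares with 3.94% of all tested genes. The call of Nqo1 was lost without 8C replicate 2 or any ENR +VE library (adjusted p up to 0.0653). The Gsta and Gstm genes are close paralogs, and how the counting split reads between them is not stated.

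Genes of fatty acid oxidation, many of them targets of the nuclear receptor PPARα, made up a block that was grouped only after the values had been seen, so its count is a description. Of 27 tested members, 19 were called lower (70.4%, against 3.94% of all tested genes). All 27 had a negative difference, as did 4909 of the 12711 tested genes, and the median log2 difference of the block was -1.18. Cyp4a10, a fatty acid ω-hydroxylase on chr4 (GRCm38 chr4:115518264-115533649), had 3.74, 1.51 and 13.2 TPM in 8C replicates 1 to 3 and 284, 315 and 299 TPM in ENR +VE replicates 1 to 3 (log2 fold change -5.76 ± 0.57, adjusted p = 0.00143). Its ENR +VE values lay close together, while its 8C values varied several-fold. Cyp4a10 has close paralogs, between which reads may be split in ways not stated. Pdk4, the kinase that shuts off pyruvate dehydrogenase, was 6.17 ± 3.68 TPM in 8C and 48.2 ± 9.6 TPM in ENR +VE (adjusted p = 0.00868). Acaa1b, a peroxisomal thiolase, was 24.4 ± 4.53 TPM in 8C and 358 ± 34.2 TPM in ENR +VE (adjusted p = 9.7e-05). Of the enzymes of mitochondrial β-oxidation, Cpt2 fell by 1.09, Acadl by 1.02, Hadha by 1.24 and Hadhb by 1.09 on the log2 scale. Without 8C replicate 2, Acadl and Hadhb no longer reached 2-fold while Ppara was called, so that 18 members of the block were called lower. Ppara itself was at 6.47, 2.49 and 11.1 TPM in 8C against 25.1, 26.6 and 17.9 TPM in ENR +VE and was not called (log2 fold change -1.81 ± 0.45, adjusted p = 0.0572). It was called lower without 8C replicate 2 and without 8C replicate 3 (adjusted p down to 0.0155 by limma).

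The Reg lectins split between genes of 1 cluster on chromosome 6 (GRCm38 chr6:78370657-78373466 for Reg3b, chr6:78375874-78378865 for Reg3d, chr6:78380709-78383827 for Reg3a, chr6:78422711-78428667 for Reg1 and chr6:78466269-78468872 for Reg3g). Reg3a had the largest fall of any named gene, with 4.5, 3.87 and 4.69 TPM in 8C replicates 1 to 3 and 480.2, 488 and 732 TPM in ENR +VE replicates 1 to 3 (log2 fold change -6.70 ± 0.19, adjusted p = 7.2e-05), a mean level 130.3-fold higher in ENR +VE. Reg3b, which lies nearby, had 664, 633 and 575 TPM in 8C replicates 1 to 3 and 683, 751 and 769 TPM in ENR +VE replicates 1 to 3 and was not called (log2 fold change -0.24 ± 0.10, adjusted p = 0.24), although its 8C values were all below its ENR +VE values. With 8C replicates 4 to 6 in their place it was called higher in 8C (log2 difference 1.53, adjusted p = 0.00024 by limma). Reg3g overlapped between groups, with 468, 482 and 395 TPM in 8C against 448, 505 and 495 TPM in ENR +VE (log2 fold change -0.11 ± 0.11, adjusted p = 0.709). Reg1 was at 67.5, 79.5 and 175 TPM in 8C against 1293, 1474 and 1553 TPM in ENR +VE (log2 fold change -3.86 ± 0.34, adjusted p = 0.0009). Reg3d, at low levels, was at 0.297, 0 and 0.291 TPM in 8C against 3.28, 3.53 and 6.31 TPM in ENR +VE (log2 fold change -2.13 ± 0.25, adjusted p = 0.00281). Reg4, which is not in this cluster, was lower by less than 2-fold and not called (log2 fold change -0.66 ± 0.14, adjusted p = 0.0309). In all, 3 of 6 tested Reg genes (50.0%, against 3.94% of all tested genes) were called lower and none higher, with and without 8C replicate 2. With 8C replicates 4 to 6 there were 4 lower and 2 higher. Reg genes are close paralogs, so some reads may be shared between them.

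The promoter windows of Reg3a and Reg3b are shown because the genes lie close together and differ in response, and those of Sis, Fabp1 and Alpi because they head the enterocyte falls. Each is the 250 bases upstream of the RefSeq transcription start (RefSeq, GRCm38.p6), 5′ to 3′ on the strand of the gene. Capitals mark matches, on either strand, to GTTAAT for HNF1, AAAGTCCA for HNF4, TTTATNG for CDX factors, AGATAA for the GATA family, CTTTGAT for TCF and LEF, TNGCGTG for AhR with ARNT, GGAATG for TEAD factors or TGANTCA for AP-1. The windows are chr6:78380459-78380708, plus strand for Reg3a, chr6:78370635-78370884, plus strand for Reg3b, chr3:72967864-72968113, minus strand for Sis, chr6:71199629-71199878, plus strand for Fabp1 and chr1:87101607-87101856, minus strand for Alpi. The GENCODE models of Fabp1 and Reg3b begin inside their windows.
Reg3a: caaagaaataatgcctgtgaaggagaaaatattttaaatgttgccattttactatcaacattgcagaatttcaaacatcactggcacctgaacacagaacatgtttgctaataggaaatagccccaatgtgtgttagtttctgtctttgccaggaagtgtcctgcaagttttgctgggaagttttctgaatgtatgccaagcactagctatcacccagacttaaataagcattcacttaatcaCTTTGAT
Reg3b: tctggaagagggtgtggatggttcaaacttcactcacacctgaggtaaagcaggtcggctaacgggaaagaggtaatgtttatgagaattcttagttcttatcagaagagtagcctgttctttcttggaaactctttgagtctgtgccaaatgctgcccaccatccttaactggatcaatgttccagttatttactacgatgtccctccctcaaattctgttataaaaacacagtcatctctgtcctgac
Sis: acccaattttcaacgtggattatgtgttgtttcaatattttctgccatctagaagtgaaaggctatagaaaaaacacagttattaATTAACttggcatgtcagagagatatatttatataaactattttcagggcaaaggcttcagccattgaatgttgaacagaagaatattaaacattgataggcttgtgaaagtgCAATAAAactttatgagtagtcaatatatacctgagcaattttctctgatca
Fabp1: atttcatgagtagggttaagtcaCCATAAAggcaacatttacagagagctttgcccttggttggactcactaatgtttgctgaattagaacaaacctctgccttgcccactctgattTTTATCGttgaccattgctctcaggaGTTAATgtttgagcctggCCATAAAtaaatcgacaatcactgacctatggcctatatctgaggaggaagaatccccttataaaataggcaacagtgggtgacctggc
Alpi: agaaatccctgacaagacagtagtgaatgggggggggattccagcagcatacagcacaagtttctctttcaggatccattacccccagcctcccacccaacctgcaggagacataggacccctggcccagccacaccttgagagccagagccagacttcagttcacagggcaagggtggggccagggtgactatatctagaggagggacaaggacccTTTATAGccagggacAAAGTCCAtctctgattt
The Reg3a window held 1 of these motifs, a TCF and LEF match that ends at the start site, and the Reg3b window held none. Sis had an HNF1 match beginning at -165 and a CDX match at -52 from the start site. Fabp1 had an HNF1 match at -107 and CDX matches at -227, -133 and -89. Alpi had an HNF4 match at -18 and a CDX match at -33 that overlaps the TATA box letters TATAAA, read on the other strand. A match is a description of letters and not a binding site.

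Across all genes with a window (10013 of the 12711 tested), the 394 windows of called falls held HNF1 matches in 12.4%, HNF4 matches in 4.06%, CDX matches in 14.7% and GATA matches in 14.7%, against 4.00%, 1.03%, 6.37% and 5.94% of all windows. The 161 windows of called rises held them in 4.97%, 1.86%, 13.0% and 10.6%. Windows of the falls were also poorer in G and C (median 52.8% against 60.0%), which moves with the share of such AT-rich letters. Among windows of 45.6% to 58.8% GC, the middle range of the falls, the shares for the falls were 7.84%, 2.45%, 11.8% and 12.3% against 5.69%, 1.32%, 8.59% and 8.76% of all windows. The 62 windows of the rises in that range held them in 1.61%, 3.23%, 14.5% and 17.7%, so for CDX and GATA the share in the rises was above that in the falls. AP-1 matches were in 9.80% of the falls, 6.45% of the rises and 5.28% of all windows of that range, and TEAD matches in 18.1%, 16.1% and 13.2%. AhR and ARNT matches were less frequent in both, with 0.980% of the falls and 3.23% of the rises against 5.87% of all windows, and TCF and LEF matches were in 2.94% of the falls, 0 of the 62 rises and 3.48% of all. TTTATNG can overlap a TATA box, and 26 of the 64 CDX matches in windows of the falls overlapped the letters TATAAA. The latter were found in 18.8% of the windows of the falls, 12.4% of those of the rises and 6.62% of all windows.

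**Figure D2:**
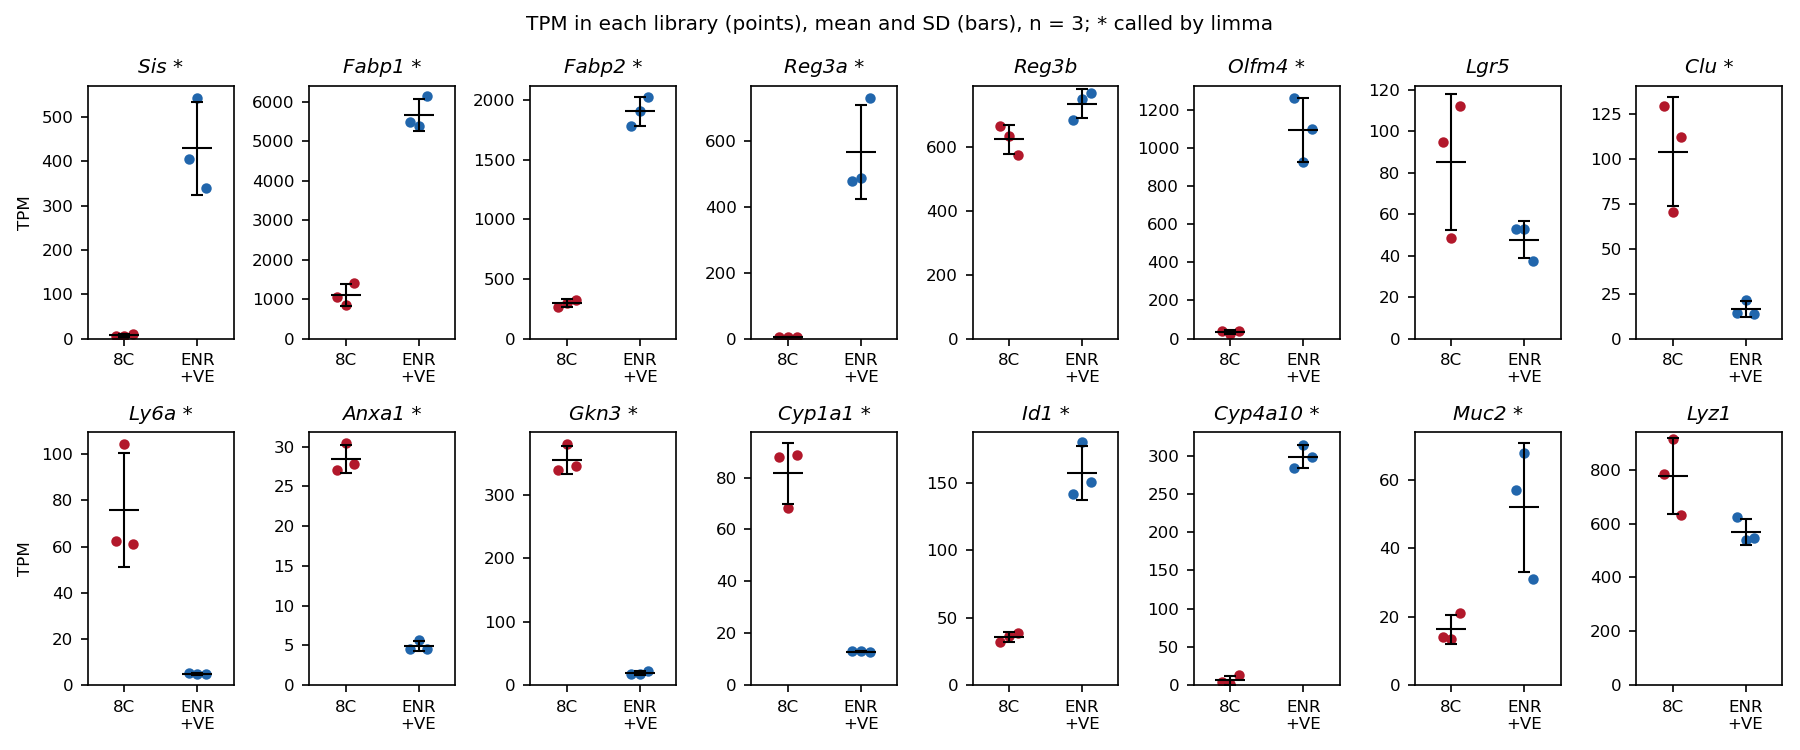
TPM of 16 genes in each of the 3 8C (red) and 3 ENR +VE (blue) libraries, with the mean and SD as black bars and an asterisk for genes called by limma. Sis, Reg3a, Olfm4 and Cyp4a10 are near the bottom of the axis in 8C, Gkn3, Clu, Ly6a, Anxa1 and Cyp1a1 are high in 8C, and Reg3b, Lgr5 and Lyz1 are not called.

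Of the 12 tested crypt base stem cell genes 1 rose and 1 fell, while 9 had a positive difference, as did 7802 of all 12711 tested genes. The median log2 difference of the list was 0.76 against 0.07 over all genes. Olfm4, a secreted glycoprotein that marks crypt base stem cells and is known as a Notch target, was at 39.7, 22.5 and 41.1 TPM in 8C replicates 1 to 3 and 1260.2, 924 and 1099.5 TPM in ENR +VE replicates 1 to 3 (log2 fold change -4.99 ± 0.25, adjusted p = 0.00013). The 2 groups were far apart. Lgr5, the R-spondin receptor that defines these cells, was at 94.6, 48.6 and 112 TPM in 8C replicates 1 to 3 and 52.7, 52.8 and 37.5 TPM in ENR +VE replicates 1 to 3 and overlapped (log2 fold change 0.76 ± 0.32, adjusted p = 0.257). In 8C replicate 2 it was the lowest of the 8C values, and without that library Lgr5 was called higher (1.11, adjusted p = 0.00765). Ascl2, the transcription factor of the stem cell state, was 51.9 ± 10.4 TPM in 8C and 80 ± 1.84 TPM in ENR +VE (log2 fold change -0.63 ± 0.15, adjusted p = 0.0502). Smoc2, a matricellular protein, was 1202 ± 129 TPM in 8C and 648 ± 46.3 TPM in ENR +VE (log2 fold change 0.89 ± 0.11, adjusted p = 0.00371). Neither reached the 2-fold limit. Tnfrsf19, a Wnt target also known as Troy, was the only member of the 12 that was called higher, with 36.4, 24.2 and 47.8 TPM in 8C against 13.2, 12.3 and 10.1 TPM in ENR +VE (log2 fold change 1.49 ± 0.26, adjusted p = 0.0149). That call was lost when 8C replicate 1 or any ENR +VE library was left out (adjusted p up to 0.0772). Without 8C replicate 2, 4 of the 12 were higher and 1 lower.
The window upstream of Olfm4 (chr14:80000052-80000301, plus strand) is shown because Olfm4 parted from the other stem cell genes, and it held an HNF1 match at -219 and no TCF and LEF match.
Olfm4: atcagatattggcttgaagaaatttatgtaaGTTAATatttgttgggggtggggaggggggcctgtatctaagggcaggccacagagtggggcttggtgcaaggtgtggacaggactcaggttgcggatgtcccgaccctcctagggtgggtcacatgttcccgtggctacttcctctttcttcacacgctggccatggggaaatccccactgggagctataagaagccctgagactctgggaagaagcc

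Of the 18 tested Wnt feedback and target genes, 2 rose and none fell, and 15 of the 18 had a positive difference, as did 7802 of all 12711 tested genes. The median log2 difference of the list was 0.45. Wif1, a secreted Wnt inhibitor, was at 4.21, 3.74 and 4.97 TPM in 8C against 1.14, 0.812 and 0.847 TPM in ENR +VE (log2 fold change 1.45 ± 0.17, adjusted p = 0.00222). The other was Tnfrsf19. Axin2, the negative feedback gene most used to read Wnt output, was at 120.1, 76.5 and 138 TPM in 8C against 101, 117 and 77.1 TPM in ENR +VE and overlapped (log2 fold change 0.16 ± 0.25, adjusted p = 0.845). Nkd1, an inhibitor of Dishevelled, and Rnf43, the ligase that removes Wnt receptors, were at 13 and 82.8 TPM in 8C and 6.15 and 47.5 TPM in ENR +VE and were not called (log2 differences 0.96 and 0.75, adjusted p = 0.0109 and 0.158). Without 8C replicate 2, 6 of 19 tested members were called higher, so the count for this list depends on that library.

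Fetal-like and revival genes were higher in 8C. Of 27 tested members of that list, 13 were called higher (48.1%) and none lower, against 1.66% of all genes, with a median log2 difference of 0.84. Clu, clusterin, the marker of revival stem cells, was at 129.8, 70.4 and 112 TPM in 8C replicates 1 to 3 and 14, 21.4 and 13.7 TPM in ENR +VE replicates 1 to 3 (log2 fold change 2.58 ± 0.27, adjusted p = 0.00181). Ly6a, which encodes the surface antigen SCA1, was at 62.6, 104 and 61 TPM in 8C replicates 1 to 3 and 5.24, 4.58 and 4.78 TPM in ENR +VE replicates 1 to 3 (log2 fold change 3.67 ± 0.23, adjusted p = 0.00025), a mean level 15.6-fold higher in 8C. Anxa1, a phospholipid-binding annexin, was at 27.1, 30.5 and 27.8 TPM in 8C replicates 1 to 3 and 4.54, 5.66 and 4.49 TPM in ENR +VE replicates 1 to 3 (log2 fold change 2.33 ± 0.16, adjusted p = 0.00028). The groups of all 3 were apart, and all 3 were called in each fit that left 1 library out. The related Ly6 genes, which are paralogs, also rose. Ly6c1 had 7.61, 7.32 and 7.59 TPM in 8C against 0, 0.117 and 0.123 TPM in ENR +VE (adjusted p = 0.0001). Ly6e had 266, 300.2 and 267 TPM in 8C against 111, 107 and 118 TPM in ENR +VE (adjusted p = 0.00038). Ly6d was at 1.87, 4.95 and 2.45 TPM in 8C and listed at 0 in every ENR +VE library (adjusted p = 0.00626). Msln, mesothelin, was likewise listed at 0 in every ENR +VE library and reached 5.38, 1.74 and 4.2 TPM in 8C (adjusted p = 0.00678). Spp1, osteopontin, was at 5.63, 5.36 and 13.4 TPM in 8C against 0.12, 0 and 0 TPM in ENR +VE (log2 fold change 3.03 ± 0.33, adjusted p = 0.00199). S100a6, a calcium-binding protein, was 83.8 ± 9.08 TPM in 8C and 32.1 ± 1.24 TPM in ENR +VE (adjusted p = 0.00075). Also called were Basp1, Vsig1 and Il1rn, the last of which encodes an interleukin 1 receptor antagonist, with log2 differences of 1.60, 1.89 and 1.26. Basp1 lost its call in 3 of the 6 fits that left a library out and Il1rn in 1 (adjusted p up to 0.0543 and 0.0554). Without 8C replicate 2 the count was again 13, of 26 tested. Other members were not called. Anxa2 was 257 ± 11.4 TPM in 8C and 313 ± 19.4 TPM in ENR +VE (log2 fold change -0.28 ± 0.09, adjusted p = 0.12). Anxa3 was 15.3 ± 1.98 TPM in 8C and 8.32 ± 1.64 TPM in ENR +VE (log2 fold change 0.82 ± 0.20, adjusted p = 0.0502).

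None of the 18 tested Hippo pathway genes was called by limma (1 was without 8C replicate 2), and their median log2 difference was 0.09. Yap1, the coactivator that the pathway restrains, was at 52.6, 41.2 and 60.2 TPM in 8C against 45.1, 51.8 and 33.7 TPM in ENR +VE (log2 fold change 0.24 ± 0.21, adjusted p = 0.653). Tead1, a DNA-binding partner of YAP, was 13.4 ± 6.23 TPM in 8C and 8.28 ± 2.53 TPM in ENR +VE (adjusted p = 0.542).

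The 12 largest rises were of several kinds. Gkn3, a gastrokine, was at 339, 381 and 347 TPM in 8C replicates 1 to 3 and 16.8, 17 and 22.3 TPM in ENR +VE replicates 1 to 3 (log2 fold change 4.19 ± 0.13, adjusted p = 7.5e-05), a mean level 19-fold higher in 8C with little spread in either group. In 8C replicates 4 to 7 Gkn3 was at 42.5 ± 29.3 TPM (n = 4), the log2 difference with replicates 4 to 6 was 1.40, and over all 7 8C replicates Gkn3 was not called (2.24, adjusted p = 0.327). Cym, chymosin, the milk-clotting protease, was at 21.8, 60.3 and 89.4 TPM in 8C against 0.16, 0.319 and 0.665 TPM in ENR +VE (log2 fold change 5.20 ± 0.49, adjusted p = 0.00121). Cym varied several-fold within each group, with no overlap. In 8C replicates 4 to 7 it was at 0.037 ± 0.074 TPM (n = 4), below every ENR +VE library, so its rise held for 8C replicates 1 to 3 alone. Aqp5, a water channel of glands, was at 17.3, 22.7 and 16.6 TPM in 8C (adjusted p = 8.8e-05). Wfdc10, a small secreted protein of the whey acidic family, was at 31.8, 8.02 and 69.4 TPM in 8C (adjusted p = 0.00649). Both were listed at 0 in every ENR +VE library. Ifitm1, an interferon-induced membrane protein, was at 54.3, 18.8 and 25.8 TPM in 8C against 0.541, 1.62 and 0.188 TPM in ENR +VE (log2 fold change 4.19 ± 0.45, adjusted p = 0.00189). Sfrp2, a secreted Frizzled-related protein that binds Wnt ligands, was at 9.16, 7.18 and 10.7 TPM in 8C against 0.183, 0.0915 and 0.191 TPM in ENR +VE (log2 fold change 3.10 ± 0.18, adjusted p = 0.00018). Ecscr was at 8.7, 7.89 and 8.93 TPM in 8C against 0.118, 0.117 and 0 TPM in ENR +VE (adjusted p = 0.0001). Ecscr is best known from endothelium, whose markers Cdh5, Kdr and Emcn were listed at 0 in all 6 libraries. Lgals1, galectin 1, was at 99.9, 143 and 119 TPM in 8C against 15.3, 9.16 and 18.2 TPM in ENR +VE (adjusted p = 0.00081). Ly6a, Spp1, Igfbp1 and Igfbp2 complete the 12.

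Binding proteins for insulin-like growth factors were grouped after their values were seen. Of 10 tested genes of that family and pathway, 5 were higher and none lower (6 and none of 9 without 8C replicate 2). Igfbp1 was at 44.9, 6.44 and 51.7 TPM in 8C against 0.388, 0.517 and 0.404 TPM in ENR +VE (log2 fold change 4.19 ± 0.72, adjusted p = 0.014), with 8C replicate 2 far under the other 8C libraries. Its call was lost when 8C replicate 1 or any ENR +VE library was left out (adjusted p up to 0.0631). Igfbp2 was at 98.5, 79.7 and 63.7 TPM in 8C against 9.62, 6.72 and 5.9 TPM in ENR +VE (log2 fold change 3.28 ± 0.23, adjusted p = 0.00038). Igfbp4 was at 509, 512 and 468 TPM in 8C against 207, 199 and 200.5 TPM in ENR +VE (log2 fold change 1.29 ± 0.08, adjusted p = 0.00025). Both were called in every such fit. Igfbp3 was 37.2 ± 16.9 TPM in 8C and 5.75 ± 0.576 TPM in ENR +VE and left the called set without ENR +VE replicate 2 (adjusted p = 0.0514). Igfbp7 was 4.54 ± 2.73 TPM in 8C and 0.44 ± 0.0862 TPM in ENR +VE and left it in 5 of the 6 fits that left out a library, all but that without 8C replicate 2.

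The aryl hydrocarbon receptor (AhR) is a ligand-activated transcription factor whose best known targets are the cytochromes Cyp1a1 and Cyp1b1. Cyp1a1 was at 88, 68.1 and 88.9 TPM in 8C replicates 1 to 3 and 13.1, 13.1 and 12.6 TPM in ENR +VE replicates 1 to 3 (log2 fold change 2.56 ± 0.14, adjusted p = 0.00017). Cyp1b1 was at 11.2, 2.3 and 10.9 TPM in 8C against 0.0385, 0 and 0 TPM in ENR +VE (log2 fold change 2.95 ± 0.50, adjusted p = 0.0135). The first had tight groups, whereas Cyp1b1 was low in 8C replicate 2 and left the called set without 8C replicate 1 or any ENR +VE library (adjusted p up to 0.0596). This group, too, was put together after the values were seen: of 8 tested genes these 2 were higher and Nqo1 was lower, with the lost calls given above. Ahr itself was 8.76 ± 2.92 TPM in 8C and 9.18 ± 2.68 TPM in ENR +VE (adjusted p = 0.954). In 8C -GSK3i, Cyp1a1 was at 6.94, 7.17 and 13.7 TPM, below the lowest of the 7 full 8C libraries (16.1 TPM). Cyp1b1 was at 0.517, 0.226 and 0.59 TPM there. The Cyp1a1 window (chr9:57697363-57697612, plus strand) is shown because Cyp1a1 is the best known AhR target. It held a GATA match at -64 and a CDX match at -31 that overlaps a TATA box, and no TNGCGTG.
Cyp1a1: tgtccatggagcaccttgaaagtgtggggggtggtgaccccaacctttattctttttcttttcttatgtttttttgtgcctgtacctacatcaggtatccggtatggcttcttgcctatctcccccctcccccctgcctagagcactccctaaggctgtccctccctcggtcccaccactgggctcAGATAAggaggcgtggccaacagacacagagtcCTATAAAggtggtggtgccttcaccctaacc

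Of the 20 tested BMP pathway genes, Id1, Id2 and Id3, direct SMAD targets that hold cells from differentiating, fell and Bmp8b, a BMP ligand, rose, and LDN193189 and Noggin both act on this pathway. Id1 was at 31.8, 36.4 and 38.6 TPM in 8C replicates 1 to 3 and 141, 180.0 and 151 TPM in ENR +VE replicates 1 to 3 (log2 fold change -2.11 ± 0.13, adjusted p = 0.00025). Id2 was at 38.7, 34.7 and 38.4 TPM in 8C against 85.2, 91.5 and 85.1 TPM in ENR +VE (log2 fold change -1.21 ± 0.10, adjusted p = 0.00067). Id3 was at 26.2, 23 and 25 TPM in 8C against 89.9, 97.4 and 89 TPM in ENR +VE (log2 fold change -1.86 ± 0.11, adjusted p = 0.00018). The groups were tight and apart in each case, and all 3 genes were called in every fit that left 1 library out. Smad6, an inhibitory SMAD and BMP target, was 15.9 ± 1.7 TPM in 8C and 19.4 ± 3.54 TPM in ENR +VE and not called (log2 fold change -0.26 ± 0.18, adjusted p = 0.546). Bmp8b was at 7.59, 5.56 and 9.73 TPM in 8C against 2.04, 2.23 and 1.43 TPM in ENR +VE (log2 fold change 1.56 ± 0.23, adjusted p = 0.00749). That call was lost with the replicate number as a block.

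No gene of the FGF list (12 tested) or of the ERK output and feedback list (18 tested) was called by limma, although without 8C replicate 2 the ERK list held 1 rise and 1 fall. Dusp6, an ERK phosphatase induced by ERK, was at 69.9, 56.9 and 75.5 TPM in 8C against 44.4, 45.6 and 35.9 TPM in ENR +VE (log2 fold change 0.67 ± 0.15, adjusted p = 0.0444), with no overlap but less than 2-fold. Spry1, a feedback inhibitor, was 35.2 ± 2.37 TPM in 8C and 23.3 ± 2.65 TPM in ENR +VE (adjusted p = 0.0496). Of the 10 tested genes of the EGF family Areg alone was called. Areg, amphiregulin, a ligand of the EGF receptor, was at 48.9, 78 and 49.8 TPM in 8C replicates 1 to 3 and 174, 178 and 216 TPM in ENR +VE replicates 1 to 3 (log2 fold change -1.70 ± 0.20, adjusted p = 0.00286), so all 8C values were below all ENR +VE values. In 8C replicates 4 to 7 the lowest, median and highest Areg values were 400.1, 557 and 705 TPM, above both groups. In the p38 and cytokine list (20 tested), Hspb1, a heat shock protein phosphorylated downstream of p38, rose, and Il18, an epithelial cytokine, and Zfp36, an RNA-binding protein that destabilises cytokine transcripts, fell. Hspb1 was at 25.7, 30.9 and 21 TPM in 8C against 7.47, 7.83 and 10.8 TPM in ENR +VE (log2 fold change 1.47 ± 0.21, adjusted p = 0.00649). It was not called with the replicate number as a block. Il18 was at 4.28, 4.28 and 6.62 TPM in 8C against 36.6, 39.2 and 33.5 TPM in ENR +VE (log2 fold change -2.65 ± 0.19, adjusted p = 0.00042). Zfp36 was at 20, 42.1 and 20.8 TPM in 8C against 75.8, 86.7 and 58.2 TPM in ENR +VE (log2 fold change -1.45 ± 0.31, adjusted p = 0.0329). It left the called set under every single omission but that of 8C replicate 2 (adjusted p up to 0.131). Of 15 immediate early genes, Atf3 was called lower at the 2-fold limit, with 13.6, 16.5 and 14.7 TPM in 8C against 27.8, 35 and 30 TPM in ENR +VE (adjusted p = 0.00789), and it was not called without 8C replicate 1, 8C replicate 3 or ENR +VE replicate 2. Fos was not called and varied widely, with 89.5, 382 and 114 TPM in 8C against 333, 459 and 239.6 TPM in ENR +VE (log2 fold change -1.07 ± 0.55, adjusted p = 0.359). Without 8C replicate 2, in which Fos was highest among the 8C libraries, Fos was called lower (-1.70, adjusted p = 0.00707). With 8C replicates 4 to 6 in place of 1 to 3, the log2 differences of Areg, Il18, Zfp36 and Atf3 were 1.50, 0.72, 0.60 and 2.30, so the falls held for replicates 1 to 3 and not for the later libraries.

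Some genes of secretory lineages fell. In the goblet list, 6 of 16 tested genes (37.5%, against 3.94% of all genes) fell and none rose, with and without 8C replicate 2. Muc2, the gel-forming mucin, was at 14.1, 13.5 and 21.2 TPM in 8C against 56.9, 67.8 and 31 TPM in ENR +VE (log2 fold change -1.57 ± 0.32, adjusted p = 0.0278). Zg16, a lectin of secretory granules, was at 3.32, 30.8 and 12.8 TPM in 8C against 227, 248 and 182 TPM in ENR +VE (log2 fold change -4.14 ± 0.66, adjusted p = 0.0104). Klk1, a kallikrein, was at 24.1, 44.2 and 23.7 TPM in 8C against 239, 208 and 221 TPM in ENR +VE (log2 fold change -2.88 ± 0.24, adjusted p = 0.00074). The groups did not overlap, though Zg16 varied several-fold in 8C and lost its call without ENR +VE replicate 2 (adjusted p = 0.0515). Tff3, a trefoil peptide, was 1377 ± 424 TPM in 8C and 1859.9 ± 269 TPM in ENR +VE and not called (adjusted p = 0.324). The calls of Muc2 and Fcgbp were lost when 8C replicate 1, ENR +VE replicate 1 or ENR +VE replicate 2 was left out (adjusted p up to 0.125 for Muc2), and Guca2a, which encodes guanylin and was also among the 6, lost its call under every single omission but that of 8C replicate 2 (adjusted p up to 0.146). Of 8 tested tuft cell genes 6 fell, again with and without 8C replicate 2, and they were lowly expressed. Rgs13, a regulator of G protein signalling, was at 0.981, 1.33 and 1.51 TPM in 8C against 7.99, 8.33 and 10.1 TPM in ENR +VE (log2 fold change -2.11 ± 0.17, adjusted p = 0.0006). Trpm5, the cation channel of tuft cell chemosensing, was 1.34 ± 0.23 TPM in 8C and 4.5 ± 0.552 TPM in ENR +VE (adjusted p = 0.00441). Its call was lost with the replicate number as a block. Pou2f3, the transcription factor that makes tuft cells, was 5.32 ± 1.27 TPM in 8C and 11 ± 0.625 TPM in ENR +VE and was not called (adjusted p = 0.0245).

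Of 21 tested Paneth cell genes, 8 fell (38.1%, against 3.94% of all tested genes) and none rose (10 of 22 fell without 8C replicate 2). All 8 were α-defensins, antimicrobial peptides whose genes are near-identical copies, so reads may be split between them in ways not stated. Defa30 was at 74.6, 178 and 71.4 TPM in 8C against 712, 646 and 726 TPM in ENR +VE (log2 fold change -2.81 ± 0.34, adjusted p = 0.00323). Defa24 was at 724, 1294 and 618 TPM in 8C against 2135, 1956 and 2101 TPM in ENR +VE (log2 fold change -1.31 ± 0.26, adjusted p = 0.0265). It was no longer called without 8C replicate 1 or any ENR +VE library (adjusted p up to 0.115). Lyz1, the Paneth cell lysozyme, was at 783, 916 and 633 TPM in 8C against 626, 539.9 and 545 TPM in ENR +VE (log2 fold change 0.43 ± 0.15, adjusted p = 0.16). Mmp7, the protease that matures defensins, was at 171, 227 and 163 TPM in 8C against 126, 113 and 135 TPM in ENR +VE (log2 fold change 0.57 ± 0.15, adjusted p = 0.0704). Both were higher in all 3 8C libraries, but neither was called. Of 23 tested enteroendocrine genes 1 rose and 1 fell (1 and 4 without 8C replicate 2). Pyy rose from 0.426 to 4.88 TPM and Gcg fell from 6.06 to 0.438 TPM (adjusted p = 0.00547 and 0.00649), both peptide hormones. Chga, the granule protein common to these cells, was at 196, 274 and 217 TPM in 8C against 195, 205 and 169.7 TPM in ENR +VE (log2 fold change 0.26 ± 0.15, adjusted p = 0.417). Neurog3, their master regulator, was at 94.8, 78.1 and 87.9 TPM in 8C against 64.9, 56.1 and 61.5 TPM in ENR +VE (log2 fold change 0.51 ± 0.12, adjusted p = 0.0407).

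**Figure D3:**
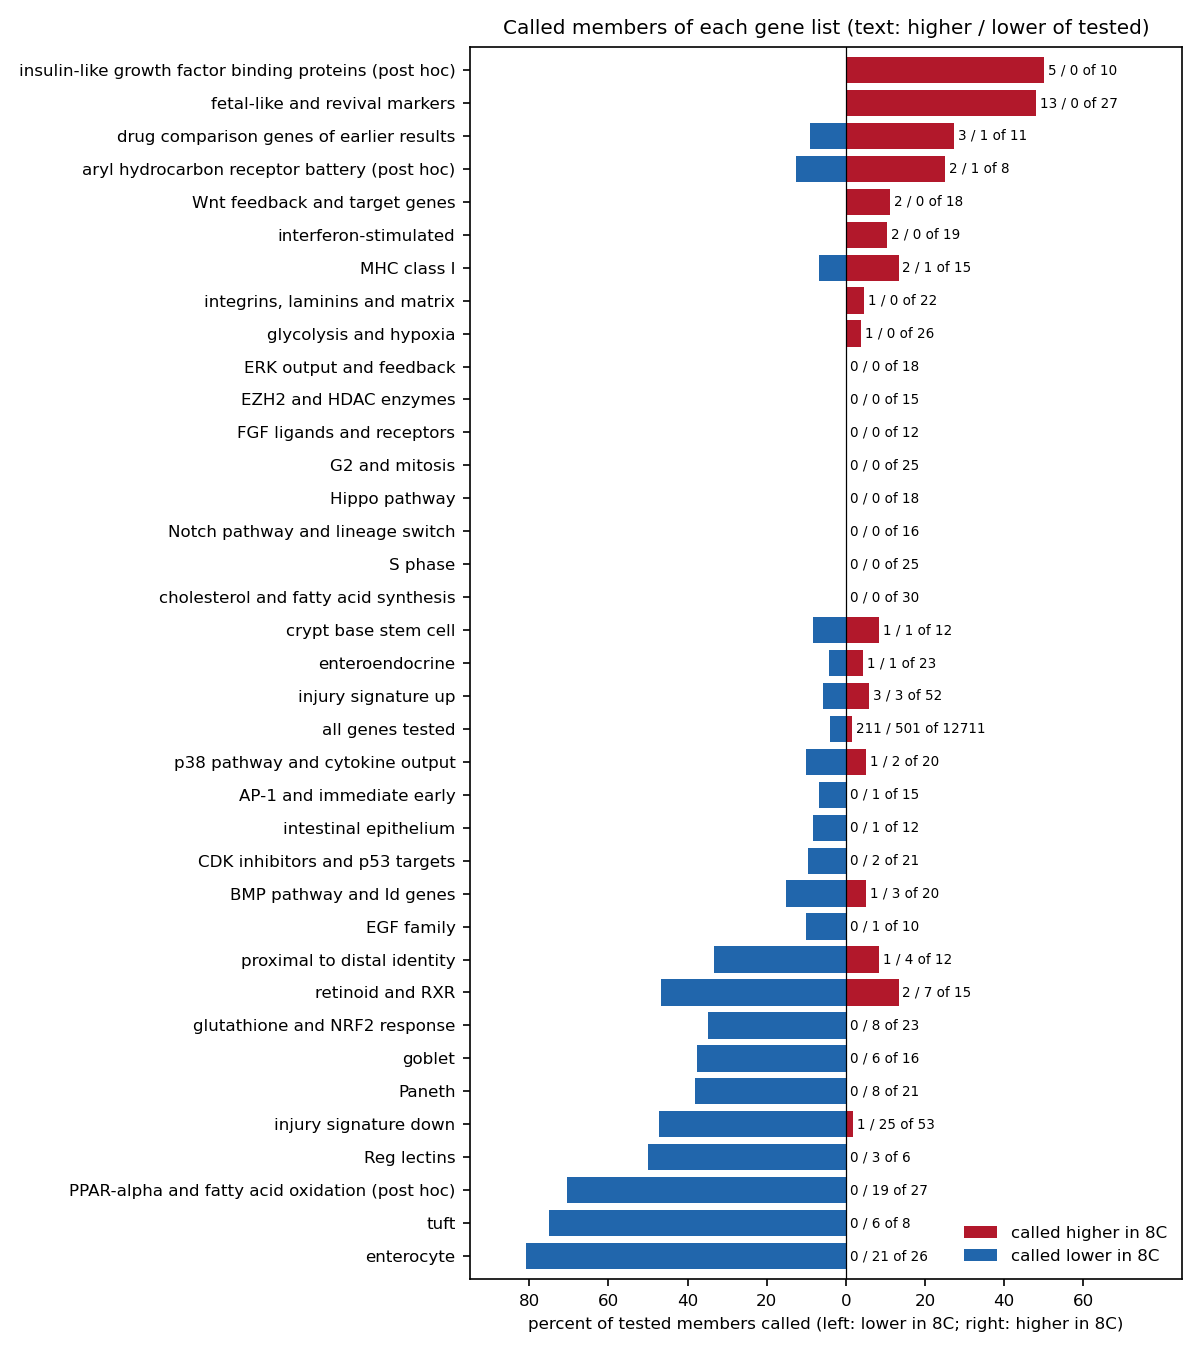
Share of tested members of each gene list called lower (blue, left) or higher (red, right) in 8C than in ENR +VE, with counts of higher, lower and tested genes as text and lists with under 6 tested members left out. Enterocyte, tuft and fatty acid oxidation genes extend farthest to the left, fetal-like and IGF binding protein genes farthest to the right, and the cell cycle, Notch, ERK, FGF and Hippo lists stand at 0.

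Of 12 tested genes of position along the gut, 1 rose and 4 fell (8.33% and 33.3%, against 1.66% and 3.94% of all tested genes). Pdx1, the duodenal and pancreatic homeobox factor, was at 38.1, 48.9 and 44.4 TPM in 8C against 24.8, 20.6 and 16.5 TPM in ENR +VE (log2 fold change 1.06 ± 0.18, adjusted p = 0.0146). Its call was lost without 8C replicate 2, ENR +VE replicate 2 or ENR +VE replicate 3 (adjusted p up to 0.0653), and with 8C replicates 4 to 6 its log2 difference was -0.19. Osr2, an odd-skipped transcription factor, was at 9.16, 9.62 and 9.79 TPM in 8C against 27, 24.3 and 29.1 TPM in ENR +VE (log2 fold change -1.40 ± 0.14, adjusted p = 0.00133). Hoxb7, Hoxb8 and Hoxb9, posterior homeobox genes, also fell, but each lost its call in 3 or 4 of the 6 fits that left a library out (adjusted p up to 0.136 for Hoxb9), and with a pseudocount of 0.1. Hoxb8 was at 0.616, 1.12 and 0 TPM in 8C against 8.92, 6.13 and 3.51 TPM in ENR +VE. Gata4, the factor of proximal identity, was 146 ± 44.6 TPM in 8C and 176 ± 18.8 TPM in ENR +VE (adjusted p = 0.601). In the interferon-stimulated list 2 of 19 tested genes rose (10.5%, against 1.66% of all tested genes). Irf1, a transcription factor, was at 39.9, 32.4 and 42.3 TPM in 8C against 12.1, 12.1 and 9.82 TPM in ENR +VE (log2 fold change 1.66 ± 0.16, adjusted p = 0.00126). Ifi27l2b was at 578, 666 and 679 TPM in 8C against 224, 252 and 314 TPM in ENR +VE (log2 fold change 1.29 ± 0.14, adjusted p = 0.0023). Of the MHC class I list (15 tested) Psmb8 and Psmb10, immunoproteasome subunits, rose (Psmb10 lost its call in 3 of the 6 fits that left a library out) and H2-Q1 fell from 43.4 to 6.79 TPM, while B2m was 730.0 ± 7.55 TPM in 8C and 792 ± 33.9 TPM in ENR +VE.

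No cell cycle gene was called by limma, neither among the 25 S phase nor among the 25 G2 and mitosis genes, although 24 of 25 in each list had a positive difference (medians 0.18 and 0.19 against 0.07 for all genes). A positive difference was also found in 7802 of all 12711 tested genes. Mki67 was at 129, 77 and 180.0 TPM in 8C against 127, 132 and 68.6 TPM in ENR +VE (log2 fold change 0.21 ± 0.37, adjusted p = 0.869). The 15 tested EZH2 and HDAC enzyme genes, the drug targets and their partners, held no call, and Ezh2 was 55.4 ± 5.26 TPM in 8C and 52.2 ± 5.32 TPM in ENR +VE (adjusted p = 0.836). Notch pathway genes (16 tested), cholesterol and fatty acid synthesis genes (30 tested) and MHC class II genes (3 tested) held none. Of the integrin, laminin and matrix list (22 tested) Lamb1, a laminin chain, rose alone (4 of 23 without 8C replicate 2; its call was lost without 8C replicate 1 or ENR +VE replicate 1), and of the glycolysis and hypoxia list (26 tested) Ldhb, a lactate dehydrogenase, rose alone. Among CDK inhibitors and p53 targets (21 tested), Cdkn2b and Fas fell, by 1.39 and 1.54 on the log2 scale (adjusted p = 0.00094 and 0.00285). Cdkn2a was at 12.5, 97.3 and 16.1 TPM in 8C against 9.43, 10.3 and 10 TPM in ENR +VE, high in 8C replicate 2 alone, and was not called (log2 fold change 1.38 ± 0.71, adjusted p = 0.365). Of 11 tested genes taken from earlier results on the drugs in these data, Bex1, Itm2a and Ldhb were higher in 8C than in ENR +VE, and Olfm4 was lower. Bex1, a small signalling adaptor, was 256 ± 51.2 TPM in 8C and 97.5 ± 4.03 TPM in ENR +VE (adjusted p = 0.0022). Ldhb was 140.4 ± 17.6 TPM in 8C and 50.8 ± 4.4 TPM in ENR +VE (adjusted p = 0.0008).

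Several of these list counts changed when 8C replicates 4 to 6 took the place of 1 to 3. Of the 12795 genes tested in that fit 4.40% were called higher and 4.10% lower. Falls in the enterocyte list (18 of 26), the goblet list (8 of 16) and the tuft list (6 of 9) and rises in the fetal-like list (21 of 26) were called there too. In the immediate early list 7 of 15 genes rose and none fell, in the interferon-stimulated list 11 of 23 rose and 1 fell, and among upregulated genes of the injury signature 15 of 55 rose and none fell. Of enteroendocrine genes 11 of 22 fell. Lists with no or few calls above also held more there, with rises of 7 of 20 Wnt genes, 4 of 18 ERK genes, 4 of 20 p38 and cytokine genes, 6 of 21 CDK inhibitors and p53 targets, 7 of 23 integrin, laminin and matrix genes and 3 of 4 MHC class II genes, and with 1 rise and 5 falls of 16 Notch genes. Of the position genes 1 of 13 fell and none rose. Among genes named here with a call, Ifitm1, Myl7, Slc5a1, Osr2, Hoxb7, Hoxb9, H2-Q1, Psmb10, Cdkn2b, Fas, Nqo1, Gsta1, Gsta3, Gstm2, Rarb, Bex1, Rhof, Trim40, Acadl, Hadha, Hadhb, Igfbp4 and Igfbp7 were not called in that fit, with the same direction as before. The labels do not say how replicates 4 to 7 differ from 1 to 3, and both sets were labelled 8C.

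The injury-associated regenerative signature that the study defines was scored per library as the mean log2(TPM + 1) of its upregulated genes (63 found) minus that of its downregulated genes (53 found). The score was -1.77 ± 0.192 in 8C and -3.10 ± 0.0546 in ENR +VE (SD, n = 3), a difference of 1.33 on the log2 scale, and 3 against 3 libraries cannot give an exact permutation p under 0.1, so no test is given. Nearly all of the difference came from the downregulated genes, whose mean was 5.67 in 8C and 6.95 in ENR +VE (difference 8C minus ENR +VE -1.28), while the mean of the upregulated genes was 3.90 and 3.85 (difference 0.05). Of 52 tested upregulated genes, 3 rose (Ly6a, Icam1, an adhesion molecule, and Hs3st1, a heparan sulfate sulfotransferase) and 3 fell (Rhof, Trim15 and Trim40). Each count is 5.77% of those tested, against 1.66% higher and 3.94% lower of all tested genes. With the replicate number as a block Icam1 was not called. The call of Trim15 was lost without 8C replicate 1 (adjusted p = 0.0524), and its log2 difference was 0.47 with 8C replicates 4 to 6. Of 53 downregulated genes, 25 fell (47.2%, against 3.94% of all tested genes) and 1 rose, Gas6, a ligand of TAM receptors, at 445, 387 and 441 TPM in 8C against 201, 207 and 188 TPM in ENR +VE (log2 fold change 1.09 ± 0.10, adjusted p = 0.00079). The 25 include metabolic enzymes. Aoc1, the diamine oxidase, was at 5.63, 3.32 and 6.08 TPM in 8C against 122, 131 and 115 TPM in ENR +VE (log2 fold change -4.40 ± 0.21, adjusted p = 0.00012). Maoa, a monoamine oxidase, was at 47.3, 40.5 and 49.3 TPM in 8C against 180.4, 214 and 192 TPM in ENR +VE (log2 fold change -2.08 ± 0.12, adjusted p = 0.00018). Car4, a carbonic anhydrase, was listed at 0 in every 8C library and at 4.72, 3.41 and 3.24 TPM in ENR +VE. In 8C replicates 4 to 7 the score was -1.40 ± 0.219 (SD, n = 4), with the upregulated genes at 4.59.

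The same base media without drugs, 8C -VE against ENR (replicates 1 to 3 of each), share no library with the comparison above. Of 12517 genes tested for an interaction, that is, for a difference between 8C and ENR +VE that was not the same as the difference between 8C -VE and ENR, 352 (2.81%) were called, 195 (1.56%) with a positive and 157 (1.25%) with a negative value. Over all replicates of the 4 groups the count was 73, and of the 12 called interactions named in the next paragraphs 2, those of Cyp4a10 and Olfm4, stayed called.

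Among positive interactions, Reg3b stood at 5.24, 9.05 and 4.17 TPM in 8C -VE and 372, 284 and 346 TPM in ENR, so without drugs it was far lower in the 8C base, and with them the base media were close (interaction 5.36 ± 0.28, adjusted p = 5.3e-06). Reg3g had a smaller interaction (1.28 ± 0.19, adjusted p = 0.00337), with 8.84, 13.5 and 9.33 TPM in 8C -VE and 27.7, 28.8 and 30.3 TPM in ENR. Cym, Igfbp1, Ifitm1 and Wfdc10 rose in 8C over ENR +VE and were at most 1.54 TPM in any library of either drug-free medium (interactions 6.10, 4.53, 4.39 and 4.27, adjusted p = 0.00015, 0.0107, 0.00087 and 0.0103). Fetal-like genes went both ways, with 4 positive and 9 negative interactions of 26 tested, against 1.56% and 1.25% of all tested genes. Anxa1, for one, was at 24.5 ± 3.5 TPM in 8C -VE and 0.731 ± 0.155 TPM in ENR, a larger difference than with drugs (interaction -1.55 ± 0.19, adjusted p = 0.00088). Over all replicates of the 4 groups the Anxa1 interaction was 0.46 and not called, so the larger difference without drugs held for replicates 1 to 3 alone. Ly6a was at 53.5 ± 13 TPM in 8C -VE and 2.9 ± 0.386 TPM in ENR, and its interaction was not called (-0.11 ± 0.30, adjusted p = 0.983).

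Among negative interactions, Olfm4 was at 1629, 1674 and 1713 TPM in 8C -VE and 2599, 2444 and 2457 TPM in ENR, so of these 4 groups 8C with both drugs alone had little of it (interaction -4.41 ± 0.27, adjusted p = 9.5e-06). Cyp4a10 was at 0.45 ± 0.439 TPM in 8C -VE and 1.86 ± 0.996 TPM in ENR, against 299 TPM in ENR +VE (interaction -4.79 ± 0.71, adjusted p = 0.00303). With both drug-free groups this low, a pseudocount of 0.1 in place of 1 gave -4.04 (adjusted p = 0.0603), which is not called. In all, 10 of the 26 tested fatty acid oxidation genes had negative interactions, against 1.25% of all tested genes, and none a positive one. Myl7, an atrial myosin light chain, was at 187, 125 and 224 TPM in ENR +VE, 14.2, 21.6 and 11.9 TPM in 8C and 31.1 ± 6.9 and 26.4 ± 7.64 TPM in 8C -VE and ENR (interaction -3.65 ± 0.40, adjusted p = 0.00047). Smooth muscle markers summed to 1.42 to 1.95 TPM in ENR +VE and 0.187 to 0.500 TPM in 8C, with Acta2 listed at 0 in all 6 libraries, and their part in the Myl7 result was not tested. Akp3, an alkaline phosphatase, was highest in 8C -VE at 1029 ± 241 TPM (interaction -2.87 ± 0.66, adjusted p = 0.0295), and that interaction was lost in 10 of the 12 fits that left out a library. For the enterocyte list the interaction was called positive in 3 and negative in 5 of 26 tested genes, against 1.56% and 1.25% of all tested genes. Sis was at 64.6 ± 10.6 TPM in 8C -VE and 1096 ± 241 TPM in ENR, so it was also lower in the 8C base without drugs (interaction -1.68 ± 0.35, adjusted p = 0.0198).

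**Figure D4:**
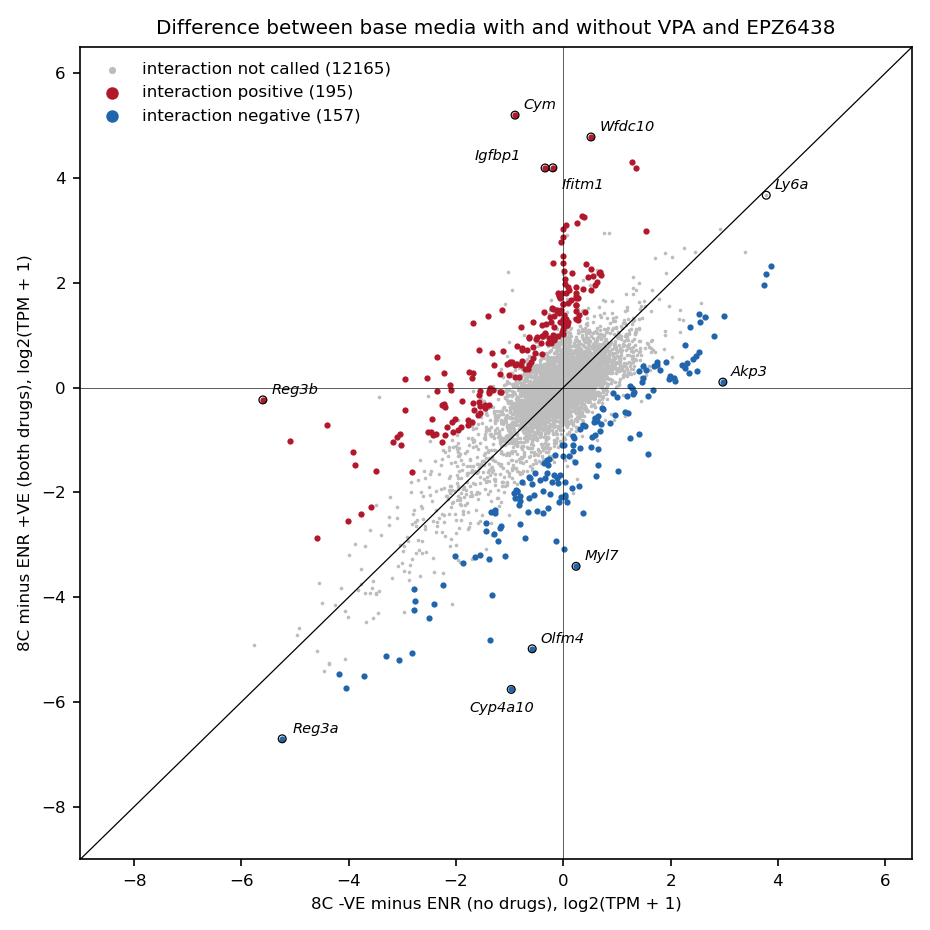
Difference between base media in log2(TPM + 1) without drugs (8C -VE minus ENR, x axis) and with both drugs (8C minus ENR +VE, y axis), means of 3 libraries per group, for 12517 genes, with the 195 positive interactions in red, the 157 negative ones in blue and equal differences on the black line. Reg3b lies far to the left near 0 on the y axis, Cym, Igfbp1, Ifitm1 and Wfdc10 near 0 on the x axis and high, Olfm4 and Cyp4a10 low, and Ly6a on the line.

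Media that lack 1 component were looked at for level only, since LDN193189, Noggin and the R-Spondin 1 source do not vary among them. Their libraries were set beside 8C replicates 4 to 7 as well as 1 to 3, because these 2 sets of 8C differed: Gkn3 was 42.5 ± 29.3 TPM in replicates 4 to 7 (n = 4) against 356 TPM in 1 to 3, Cym 0.037 ± 0.074 against 57.2 TPM and Ly6a 637 ± 228 against 76 TPM. Gkn3 in 8C -GSK3i, 8C -Pex and 8C -bFGF was 58.8 ± 15.3, 64.7 ± 25.6 and 61.2 ± 41.4 TPM (n = 3 each), near replicates 4 to 7. Olfm4 stayed low in all 3 (20.8 ± 14.3, 23.6 ± 18.1 and 12 ± 8.54 TPM), as did Reg3a (36.5 ± 7.93, 35.1 ± 21.8 and 16.7 ± 11.2 TPM), far under ENR +VE. In 8C without EGF, a component that both groups share, Olfm4 was 545 ± 399.7 TPM. Sis was 80.2 ± 36.4, 52 ± 34.1 and 29.4 ± 33.5 TPM and, in 8C replicates 4 to 7, 8.41, 39.4 and 218 TPM (lowest, median and highest). Among these 3 media the mean of Clu was lowest without GSK3iXV and highest without Pexmetinib (41.8 ± 17.5, 243 ± 166 and 98.7 ± 14.3 TPM), but 8C replicates 4 to 7 spanned 30.8 to 127 TPM. Id1 stayed below ENR +VE in each (38.9 ± 14.1, 53.9 ± 28.8 and 35.8 ± 21.2 TPM).

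**Figure D5:**
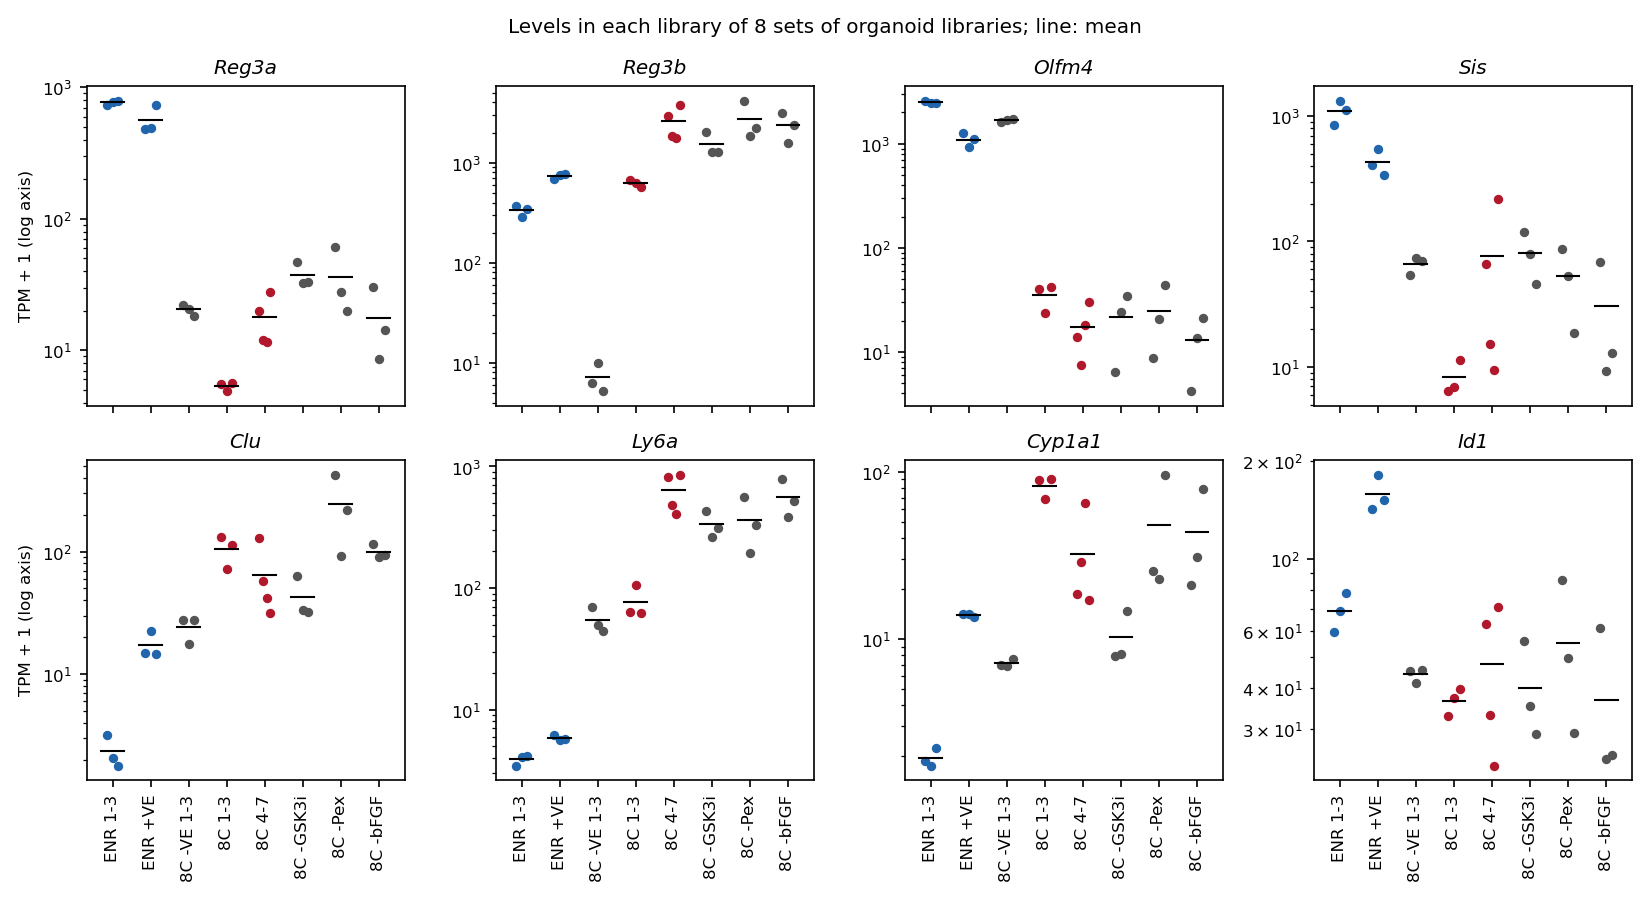
TPM + 1 on a log axis for 8 genes in each library of ENR and ENR +VE (blue), 8C replicates 1 to 3 and 4 to 7 (red) and 8C -VE replicates 1 to 3, 8C -GSK3i, 8C -Pex and 8C -bFGF (grey), with a line at the mean. Reg3a and Sis are highest in the ENR media, Olfm4 is low in every plotted medium that joins the 8C base with both drugs, Reg3b is low in 8C -VE, and Cyp1a1 is lower in 8C -GSK3i than in the other plotted 8C media with both drugs.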

How the data were processed

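Bulk RNA-seq values were deposited as TPM per gene, a length- and depth-scaled unit. Per the labels and methods, the authors trimmed reads with Trimmomatic 0.39, aligned them to mm10 with STAR 2.7.3a and counted them with featureCounts, and how counts became TPM, the annotation and the strand setting are not given in the sources used here. Depth is unknown from TPM, so no counting interval is given.

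Here limma 3.58.1 (R 4.3.3, eBayes with trend and robust options) was run on log2(TPM + 1), two-sided, over the 12711 of 29579 genes that averaged 1 TPM or more in the 6 libraries, with Benjamini-Hochberg adjustment over all of them. A gene was called where its adjusted p was under 0.05 and its change 2-fold or more, and fold changes on this scale understate those of low genes. Errors after a log2 fold change are standard errors, and those after TPM means are SDs. The interaction was fitted over 12 libraries, replicates 1 to 3 of 4 groups. The script was tested on simulated data. The text names the 12 largest rises, the 12 largest falls and the 5 largest interactions in each direction among called genes, the rises and falls also without overlap between groups, and called members of the gene lists with a few that were not. Predicted or clone-named genes (Gm and a number, Rik and the like), pseudogenes and sex-linked genes were skipped in these ranks, and a few genes are not reported here. The members, lists and rules were chosen with earlier results of these data known, and 3 lists (fatty acid oxidation, AhR and IGF binding proteins) after the values were seen. The exact permutation test was left out because 3 against 3 libraries cannot pass 0.05. Coordinates are GRCm38 from GENCODE, and promoter windows from RefSeq.

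Alternatives tried were pseudocount 0.1, a minimum of 5 TPM or none, no fold limit, 75th percentile and quantile scaling, removal of mitochondrial genes, a replicate block, other 8C replicates, all 10 organoid groups in the fit, each library left out, and, chosen after seeing the data, removal of a transcript length trend, alone or with the block, and omission of both 8C replicate 2 and ENR +VE replicate 3.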

Additional observations from a re-analysis of the deposited data

Results flagged for a closer look

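For the following genes, taken from the largest interactions in each direction, the difference between base media was not the same with both drugs as without them, by the limma interaction term (n = 3 libraries per group). The positive values, in log2 units, were 6.10 for Cym, 5.36 for Reg3b, 4.53 for Igfbp1, 4.39 for Ifitm1 and 4.27 for Wfdc10. The negative values were -4.79 for Cyp4a10, -4.41 for Olfm4, -3.65 for Myl7 and -2.87 for Akp3. Over all replicates of the 4 groups only Cyp4a10 and Olfm4 stayed called (-5.47 and -4.75). The other interactions were smaller there and not called. They were 2.55 for Cym, 3.86 for Reg3b, 2.83 for Igfbp1, 2.99 for Ifitm1, 2.54 for Wfdc10, -1.43 for Myl7 and -2.42 for Akp3. Groups of 3 libraries were not searched for single outlying libraries.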

How the results depend on the processing

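Against 712 calls (211 higher and 501 lower), 8C replicates 4 to 6 in place of 1 to 3 gave 1088 (563 higher), a minimum of 5 TPM 463 (115 higher) and no fold limit 1118 (429 higher). With all 7 8C replicates 312 genes were lower. Leaving out 1 library gave 545 to 858 calls, 142 to 346 higher and 403 to 547 lower, the highest count of rises being that without 8C replicate 2. Against 352 interactions (195 positive and 157 negative), all replicates of the 4 groups gave 73 (33 and 40), a minimum of 5 TPM 210 (100 positive) and no fold limit 582 (299 negative). Leaving out 1 library gave 277 to 495 interactions, 149 to 312 positive and 119 to 195 negative. The positive maximum was without 8C replicate 2. The score difference of 1.33 became 1.63 in SD units per gene, 1.60 with 8C replicates 4 to 6 and 1.54 with all 7. In these cases the cause was not tested, other than fewer genes entering at 5 TPM and more passing without a fold limit.

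With 8C replicates 4 to 6 these genes changed direction (Cym averaged under 1 TPM there and was not tested): Reg3b (1.53), Areg (1.50), Zfp36 (0.60), Il18 (0.72), Atf3 (2.30), Pdx1 (-0.19), Trim15 (0.47) and Cmbl (0.25). With all 7 8C replicates, and with all 10 organoid groups in the fit, Areg (0.14) and Atf3 (1.12) did. Of 173 called genes in the lists or among the named extremes, 145 were called in all 6 fits that left out 1 library. The calls of Igfbp1, Tnfrsf19, Zfp36, Atf3, Basp1, Defa24, Muc2, Fcgbp, Guca2a, Alpi, Pdx1, Hoxb7, Hoxb8, Hoxb9, Psmb10, Nqo1, Adtrp, Cyp1b1 and Igfbp7 were lost in 3 or more of them (largest adjusted p 0.0517 for Atf3 to 0.154 for Alpi), and those of Il1rn, Zg16, Rarb, Lamb1, Trim15, Maob, Acadl, Hadhb and Igfbp3 in 1 or 2. With pseudocount 0.1 the interaction of Cyp4a10 was no longer called.

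The replicate number as a block gave 512 calls (130 higher and 382 lower) and 308 interactions. Same-numbered libraries of 8C and ENR +VE deviated from their group means with correlations of 0.306, -0.380 and -0.587, so the numbers were not taken as pairs, although Xist and the Y-linked genes differed by replicate number in the same way in both groups. 8C replicate 2 correlated most with ENR +VE replicate 3 (0.569), the other library in which long transcripts were low. With the length trend removed the same-numbered correlations were 0.200, -0.127 and -0.341, again not all above 0.1, and that removal together with the block gave 801 calls (266 higher and 535 lower), with Atf3 and Acadl the genes in lists or among named extremes that lost a call. With the block 126 of the 211 rises and 376 of the 501 falls kept their call, and among list members and named extremes these lost it: Tnfrsf19, Hspb1, Atf3, Bmp8b, Defa24, Muc2, Fcgbp, Guca2a, Trpm5, Alpi, Npc1l1, Pdx1, Psmb10, Nqo1, Rbp4, Rarb, Lamb1, Icam1, Adtrp and Igfbp7 (adjusted p 0.0514 for Icam1 to 0.140 for Fcgbp), and the interaction of Akp3. Removing the transcript length trend gave 815 calls, and omitting 8C replicate 2 and ENR +VE replicate 3 gave 823.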

Other observations

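Media that lack 1 of the drugs, 8C -V (without VPA) and 8C -E (without EPZ6438), entered no comparison. Olfm4 was 455 ± 167 TPM in 8C -V and 824 ± 469.9 TPM in 8C -E (mean ± SD). Reg3b was 445 ± 440.3 and 205 ± 222 TPM, and Clu was 135 ± 138 and 30.4 ± 27.6 TPM. Cyp1a1 was 33.6 ± 18.8 and 14.7 ± 8.94 TPM.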
